A study of Mus musculus with 230 samples.

Results

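The 55 genes described here encode subunits of the ATP-dependent chromatin remodelling complexes, found by gene name among the 46983 names of the deposited tables: the Smarc, Chd, Arid1, Arid2, Actl6, Dpf, Pbrm1, Brd7, Brd9, Ino80, Ruvbl, Bptf, Baz, Mbd2, Mbd3, Mta, Gatad2, Rbbp4 and Rbbp7 genes. They were grouped as 20 genes of the BAF family, 7 of ISWI, 18 of CHD and NuRD, 7 of INO80 and 3 others (Smarcad1, Smarcal1 and Chd1l). The names Smarca5-ps, Smarce1-ps1, Ino80dos and Chd3os, which are pseudogenes and antisense or neighbouring transcripts, were left out by the rule. All 55 names were in the tables of both ages.

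The cells came from C57BL/6 mice that carried Neurog2CreERT and the Cre reporter Ai14 (labelled Ai14+/+), and tamoxifen had been given 12 h before harvest at both ages. The Cre is driven by Neurog2, a gene of cortical neurogenesis, so the sorted tdTomato-positive cells are a lineage label for cells with recent Neurog2 activity and their early progeny, not one cell type. E15 cells were taken from the pallium, the embryonic dorsal forebrain, and P2 cells from the dorsal subventricular zone, the germinal layer next to the lateral ventricle, so age and region differ together. Of 230 cells, 121 were E15 and 109 were P2, and 1 P2 cell with 0 for every gene was left out. The format of the cell titles splits them into 4 sets: 60 and 61 E15 cells, named set A and set B here, and 55 and 53 P2 cells, named plate 1 and plate 2. The P2 titles hold the word plaque with 1 or 2. The E15 titles name no plate, and sets A and B were told apart by title format alone. Some cells of set B share the second number of their titles, so whether set B is 1 plate is not known. The word plate is used below for all 4 sets. No label names an animal or litter, so each age is 1 sample, there is no test between ages, and no p-value is given.

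Chromatin remodellers use ATP to slide, evict or exchange nucleosomes. A BAF complex (SWI/SNF) is built around 1 ATPase, Smarca4 (BRG1) or Smarca2 (BRM), with core subunits such as Smarcb1, Smarcc1, Smarcc2 and Smarce1, and in the nervous system several subunits are known to be exchanged for a paralog as progenitors become neurons, among them Actl6a for Actl6b. ISWI complexes space nucleosomes with the ATPase Smarca5 or Smarca1. NuRD joins a Chd3, Chd4 or Chd5 ATPase to histone deacetylases, and the INO80 family, with the Ruvbl1 and Ruvbl2 ATPases, exchanges histone variants.

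The value of a gene in a cell is its RPKM (reads scaled by the length of the transcript and the read total of the cell), and the level of a group is the mean over its cells of log2(RPKM + 1). A gene counts as detected in a cell at 1 RPKM or more, which for these genes stood for a median of 45.2 reads at E15 and 41.0 at P2. A gene is measured in a comparison when 10% or more of the cells of 1 group or the other detected it. It is called lower or higher when the difference was at least 0.5 on the log2 scale and had the same sign in every pair of plates. Since log2(RPKM + 1) pulls low values together, differences of low genes are understated.

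The 2 ages differed in how many genes a cell showed. E15 cells had a median of 2867 detected genes (809 to 4329) and P2 cells 2025 (up to 3339), from a median read total of 6.50 M and 5.90 M (M for mega). Mitochondrial RPKM was above 20% in 22 E15 cells and 2 P2 cells. The marker lists also differed between the ages. The summed RPKM of 10 markers of intermediate progenitors had a median of 250.2 at E15 and 206 at P2, although the T-box gene Eomes among them was detected in 63.6% and 72.2% of cells. For 10 markers of glutamatergic neurons the medians were 925 and 215, and for 9 of radial glia 8.03 and 27.2. By plate the radial glia medians were 6.39 and 16.4 at E15 and 4.12 and 32.3 at P2, so the ages overlapped. Sox2 was in 3.31% and 19.4% of cells, Pax6 in 22.3% and 44.4%, Slc1a3 in 7.44% and 17.6% and Ptprz1 in 9.09% and 31.5%. Vim went the other way, with 24.8% and 3.70%, and Fabp7 was in 46.3% and 44.4%. Hes1, Hes5 and Hopx were in few cells or none. Of 8 interneuron markers none was detected at E15. At P2, Gad2, a gene of GABA synthesis, was in 44 cells (40.7%), Dlx1, Dlx2, Dlx5 and Dlx6os1 in 1 or 2 cells each, and Gad1, Slc32a1 and Lhx6 in none. Of 5 astrocyte markers Sparcl1 was in 18 P2 cells and 0 E15 cells and Slc1a2 in 11 and 2, and of 5 of the oligodendrocyte lineage Olig2 and Pdgfra were in 1 P2 cell each. All 6 microglial, 4 endothelial and 3 red-cell markers were below the detection limit in every cell. The part of these differences between the ages in the results below was not tested, except where cells were left out or matched.

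2 of the members are shown by sequence because they encode the alternative ATPases of BAF and were called in opposite directions between the ages. Smarca4 lies on chr9:21616169-21704230 and Smarca2 on chr19:26605050-26778322 (GRCm38, both on the plus strand, GENCODE M21 gene bounds). Both lines run 5′ to 3′ on the plus strand up to the base before the first annotated exon, from the RefSeq promoter table of GRCm38.p6, at chr9:21615919-21616168 and chr19:26604910-26605049. Capitals mark GGGCGG, the SP/KLF motif, and GCATGCGC, the core of the NRF1 motif, on either strand.
Smarca4: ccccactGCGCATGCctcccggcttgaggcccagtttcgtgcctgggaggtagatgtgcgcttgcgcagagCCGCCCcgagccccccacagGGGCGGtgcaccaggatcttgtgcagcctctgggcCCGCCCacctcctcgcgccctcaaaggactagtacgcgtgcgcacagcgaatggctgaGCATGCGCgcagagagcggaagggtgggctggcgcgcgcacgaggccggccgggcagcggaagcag
Smarca2: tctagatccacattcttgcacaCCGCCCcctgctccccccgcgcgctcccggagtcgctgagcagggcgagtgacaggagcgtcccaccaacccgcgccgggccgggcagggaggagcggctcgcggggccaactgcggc
The 250 bases of Smarca4 hold 25 CpG and 3 SP/KLF matches and are 70.8% G or C. The 140 bases of Smarca2 hold 16 CpG and 1 SP/KLF match and are 73.6% G or C. RefSeq gives 32851 windows of 250 bases, of which 32.7% hold an SP/KLF match, and 15.3% do when cut to their first 140 bases. The table held 53 windows of 250 bases for 44 of the 55 members, and 42 of the 53 (79.2%) hold an SP/KLF match. Their median share of G or C was 64.0%, against 52.4% for all windows. The ETS motif CCGGAAG was in 7 of the 53 windows (13.2%, all windows 6.91%). AGGTGTGA, the T-box motif of the family to which Eomes belongs, was in none of the 53 and in 1.12% of all windows. CAGATG, an E-box of the kind bound by Neurog2, was in 2 of the 53 (3.77%) and in 14.4% of all windows. A match is a description of letters and not a site.

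Between E15 and P2, 19 of the 50 measured subunits were called lower at P2 and 1 was called higher. Over all 7493 measured genes, 22.2% were called lower and 3.42% higher. The median difference of the measured subunits was -0.44 (-0.51 to -0.33 over the 4 plate pairs), against -0.24 for all measured genes. Of the 50, 44 were measured in both ages and 6 only through E15, and of the 19 lower calls only Baz1a was among these 6. The other 5 members (Dpf3, Smarca1, Chd5, Ino80e and Chd1l) were detected in under 10% of the cells of both ages, and over all 55 members with no filter the median was -0.36. The subunit called higher was Smarca2. By family, the lower calls were 9 of 19 measured BAF genes (47.4%), 5 of 6 ISWI genes (83.3%) and 4 of 17 CHD and NuRD genes (23.5%). They also included 0 of 6 INO80 genes and 1 of 2 others. The CHD and NuRD share was near the 22.2% of all measured genes. With only 6 INO80 genes, a count of 0 cannot be told apart from that share. The ISWI share likewise rests on only 6 genes. The median differences were -0.66 for BAF, -0.68 for ISWI, -0.22 for CHD and NuRD and -0.21 for INO80. On the log2 of the mean RPKM, 13 were called lower and 4 higher (Smarca2, Mbd3, Rbbp7 and Smarcd3), beside 21.0% and 13.4% of all measured genes, and 9 of the 19 lower calls were lost (Arid1a, Arid2, Baz1b, Chd6, Gatad2b, Smarca4, Smarcb1, Smarcc2 and Smarcd1). Without P2 plate 1, Mbd3 and Rbbp7 joined Smarca2 as higher, which made 3.

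**Figure D1:**
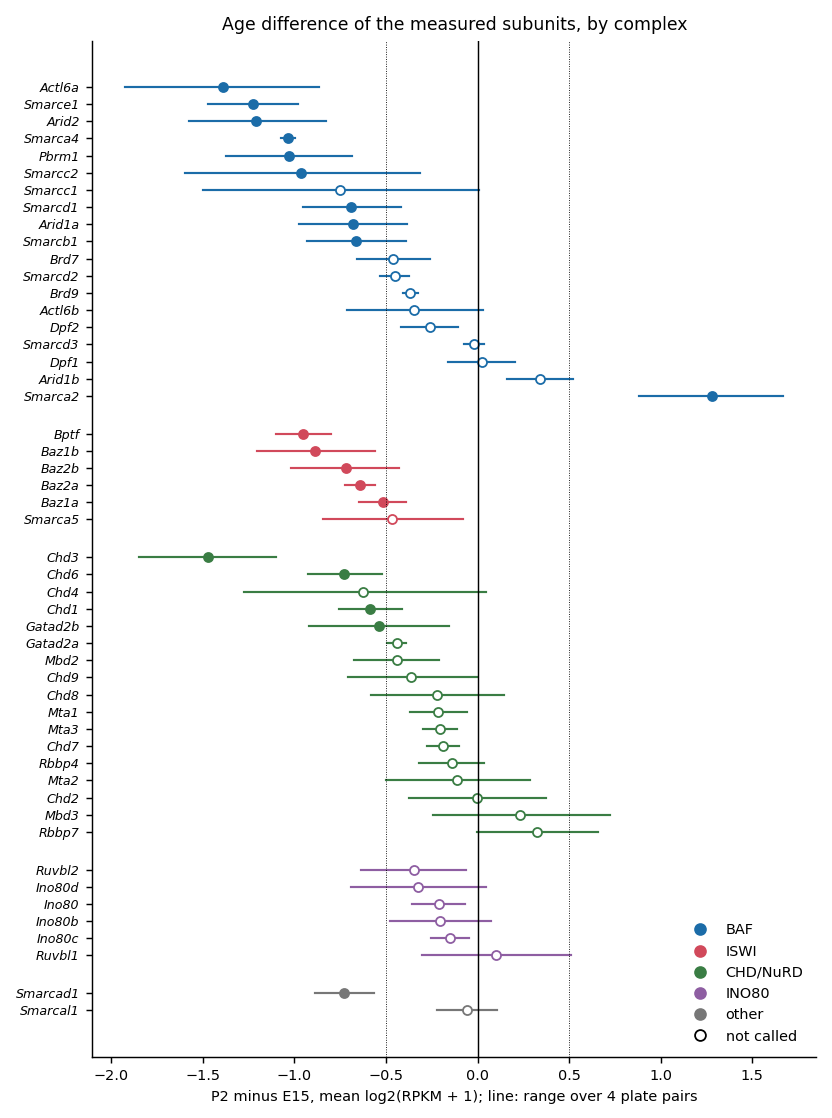
The difference P2 minus E15 in mean log2(RPKM + 1) of the 50 measured subunits, grouped by complex, with a line from the lowest to the highest of the 4 plate pairs. Filled points are called, dotted lines mark 0.5 in either direction, and Smarca2 at 1.28 is the only filled point above 0.

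The number of subunits detected in a cell moved with the number of all genes detected. A median of 24 subunits was detected per E15 cell (5 to 36) and 17 per P2 cell (0 to 33), which is a median of 8.65 and 8.10 per 1000 detected genes. By plate the medians were 24, 25, 15 and 19, in the order E15 set A, E15 set B, P2 plate 1 and P2 plate 2. In 51 cells of each age matched on detected genes (medians 2549 and 2353), 22 and 19 subunits were detected. In these matched cells 13 subunits were called lower and 4 higher (Smarca2, Arid1b, Brd9 and Mbd3), beside 13.1% and 11.9% of all measured genes, and 12 of the 19 lower calls were made again. The other 7 were Actl6a, Arid1a, Baz1a, Chd1, Gatad2b, Smarcb1 and Smarcd1. All 19 had negative differences in the matched cells.

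Among the BAF ATPases, Smarca2 was higher and Smarca4 lower at P2. Smarca2 RPKM ran from 0 to 88.2 over E15 cells with a median of 0.230, and from 0 to 156 over P2 cells with a median of 4.99. The mean RPKM was 8.72 and 5.83 in the E15 plates and 24.0 and 19.8 in the P2 plates, so the plates of the 2 ages did not overlap, while single cells did. The level was 1.42 ± 1.9 (SD, n = 121 cells) at E15 and 2.71 ± 2.49 (SD, over the P2 cells) at P2, a difference of 1.28 (0.88 to 1.67 over plate pairs). Smarca2 was detected in 39.7% of E15 cells (exact 95% interval 30.9 to 49.0) and 58.3% of P2 cells (48.5 to 67.7). Where it was detected, the median RPKM was 7.70 at E15 and 24.2 at P2, so both the share of cells and the level in them were higher.

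Smarca4 RPKM ran from 0 to 163 at E15 (median 13.5) and from 0 to 220 at P2 (median 1.77). The mean level was 3.52 and 3.47 in the E15 plates and 2.48 and 2.44 in the P2 plates, a difference of -1.03 (-1.07 to -0.99). Its share of detecting cells was 83.5% at E15 (75.6 to 89.6) and 55.6% at P2 (45.7 to 65.1). The median RPKM in detecting cells was 16.5 at E15 and 21.4 at P2, and the mean RPKM over all cells was 21.4 and 19.8. The difference of Smarca4 therefore lay in how many cells showed the gene and not in the mean RPKM: on the log2 of the mean RPKM it was -0.11. Exons of Smarca2 overlap those of 4931403E22Rik and exons of Smarca4 those of Gm27373, and the libraries carry no strand.

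Set against each other, Smarca2 made up 25.3% of the summed mean RPKM of the pair at E15 and 52.6% at P2. The share was 26.7% and 23.6% in the E15 plates and 54.1% and 50.8% in the P2 plates. Only Smarca4 was detected in 58 E15 and 25 P2 cells, only Smarca2 in 5 and 28, both in 43 and 35, and neither in 15 and 20. Among P2 cells the Smarca2 share was 48.7% with Gad2 detected and 55.4% without, and among cells with at least 5 of 15 G2/M genes detected (17 cells at each age) it was 11.6% at E15 and 37.6% at P2. The difference of Smarca2 was 1.44 without the Gad2 cells, 1.40 without the G2/M cells and 0.97 in the cells matched on detected genes. It was called higher under each of the 20 alternatives run, with differences from 0.97 to 1.89.

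The actin-related subunit Actl6a (chr3:32706298-32726973) had the largest negative difference in BAF. Its mean RPKM was 21.8 and 11.7 in the E15 plates and 5.00 and 4.03 in the P2 plates, and its highest cell was at 136 and 131. It was detected in 59 E15 cells (48.8%) and 20 P2 cells (18.5%), and the median RPKM in those cells was 21.5 and 10.4. The difference was -1.39 (-1.92 to -0.87), and -0.31, not called, in the cells matched on detected genes. Its exons overlap those of Mrpl47. The neuronal counterpart Actl6b was detected in 20.7% and 10.2% of cells, with a difference of -0.35 that was not called (-0.71 to 0.03). Actl6b made up 20.1% of the pair at E15 and 31.9% at P2, but the P2 plates were at 4.68% and 50.2%, on either side of the E15 plates at 16.4% and 26.2%. Neither gene was detected in 46 E15 and 79 P2 cells.

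The core subunits differed in the same direction. Smarce1 (BAF57), the member with the highest mean RPKM at both ages, was at 55.8 and 61.6 in the E15 plates and 38.3 and 40.2 in the P2 plates. The share of detecting cells was 91.7% and 77.8%, and the difference was -1.22 (-1.47 to -0.98), or -0.56 in the matched cells. The pseudogene Smarce1-ps1 was detected in 1 E15 cell. Smarcb1 differed by -0.66, Smarcc2 by -0.97 and Smarcd1 by -0.69, all called lower. In the matched cells they were at -0.63, -0.65 and -0.34, and of the 3 only Smarcc2 was called there, since the plate pairs of Smarcb1 did not share a sign. On the log2 of the mean RPKM, Smarcc2 was at -0.34 and Smarcd1 at -0.31, and none of the 3 was called. Smarcc1 differed by -0.75 and was not called, because its plate pairs ran from -1.50 to 0.01. Its share of the Smarcc1 and Smarcc2 pair was 48.4% at E15 and 50.3% at P2, but both were detected together in 79 E15 cells (65.3%) and 26 P2 cells (24.1%). Smarcd2 was detected in 13 E15 cells and in 0 of the P2 cells, which allows a share of up to 2.78%. Its difference of -0.45 was not called.

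The subunits that distinguish the BAF subtypes split. Arid1a and Arid1b are alternative subunits of canonical BAF, and Arid2, Pbrm1 and Brd7 belong to PBAF. Arid2 had a mean RPKM of 15.3 and 14.1 in the E15 plates and 8.21 and 13.0 in the P2 plates, and a difference of -1.21 (-1.58 to -0.83). It was detected in 69.4% and 33.3% of cells, with a median of 13.1 RPKM at E15 and 22.7 RPKM at P2 in the cells that showed it. Pbrm1, at 26.4 and 34.2 in the E15 plates and 19.6 and 21.5 in the P2 plates, differed by -1.03 (-1.37 to -0.69), and its exons overlap those of Gnl3. Brd7 differed by -0.46 and was not called. Brd9, of the noncanonical BAF complex, had 26.8 and 25.7 mean RPKM and a difference of -0.37, not called. In the matched cells its difference turned to 0.77 and was called higher.

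Arid1a was called lower (-0.68, -0.98 to -0.39), and Arid1b was higher in every plate pair without reaching the call size (0.34, 0.16 to 0.52). Arid1b was detected in 77.7% of E15 cells (69.2 to 84.8) and 88.0% of P2 cells (80.3 to 93.4), the highest share of any member at P2. Only Arid1a was detected in 22 E15 and 11 P2 cells, and only Arid1b in 12 and 36. The Arid1b share of the pair was 36.9% and 32.1% in the E15 plates and 41.2% and 45.3% in the P2 plates. In the matched cells Arid1b was called higher, at 0.65, and Arid1a was at -0.43 and not called. On the log2 of the mean RPKM they were at 0.14 and -0.36, neither called. Of the Dpf genes, which carry histone-reading PHD fingers, Dpf2 differed by -0.26 and Dpf1 by 0.02, neither called, and Dpf3 was detected in 2 P2 cells only.

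**Figure D2:**
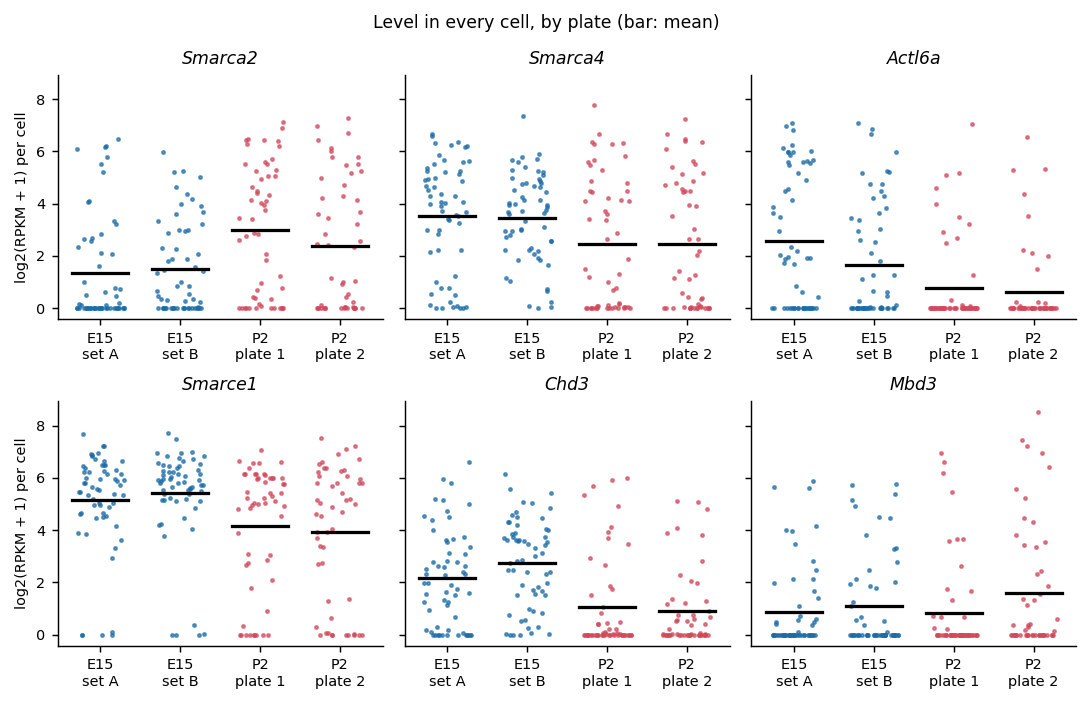
Level of 6 subunits in every cell, as log2(RPKM + 1), with 1 point per cell in each of the 4 plates and a bar for the mean. Smarca2 has higher bars in both P2 plates, Smarca4, Actl6a, Smarce1 and Chd3 have lower ones, and Mbd3 differs between the P2 plates.

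In ISWI, the accessory subunits were lower and the main ATPase was not called. Bptf, the large NURF subunit, had 11.5 and 8.79 mean RPKM in the E15 plates and 5.50 and 6.62 in the P2 plates, and differed by -0.95 (-1.10 to -0.80). Baz1b, of the WICH complex, was detected in 49.6% and 18.5% of cells at E15 and P2 and differed by -0.89 (-1.20 to -0.56). Baz2b differed by -0.72 (-1.02 to -0.43), with 74.4% and 60.2% of cells detecting it. Baz2a (NoRC) and Baz1a (ACF) were called lower at -0.64 and -0.52. In the matched cells Bptf was at -0.91, Baz1b at -0.62, Baz2b at -0.56 and Baz2a at -0.58, all called, and Baz1a was at -0.29, not called. On the log2 of the mean RPKM Baz1b was at -0.38 and not called. Among cells with Eomes 6 of 7 measured ISWI genes were called lower, beside 23.7% of all measured genes. Among cells without Eomes 2 of 5 were, beside 23.4%, and Baz1a, Baz2b and Bptf were not called. The ATPase Smarca5 was at 9.79 and 13.4 in the E15 plates and 7.77 and 10.1 in the P2 plates, which overlap, and its difference of -0.47 (-0.84 to -0.08) missed the call size. Smarca5 made up 81.2% of the Smarca1 and Smarca5 pair at E15 and 79.4% at P2, and the pseudogene Smarca5-ps was detected in no cell.

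In the CHD and NuRD group, Chd3 carried the largest negative difference of all members. Its mean RPKM was 9.45 and 10.8 in the E15 plates and 5.73 and 3.06 in the P2 plates, and its share of detecting cells was 72.7% (63.9 to 80.4) and 26.9% (18.8 to 36.2). The level was 2.45 ± 1.77 (SD, n = 121 cells) at E15 and 0.97 ± 1.65 (SD, over the P2 cells) at P2, a difference of -1.47 (-1.85 to -1.10), and it was -1.14 in the matched cells. The median RPKM in detecting cells was 9.09 and 9.91, so the ages differed in the share of cells. Chd4, the paralog, was detected in 66.1% and 42.6% of cells and differed by -0.62, but its plate pairs ran from -1.28 to 0.05 and it was not called. Chd3 made up 58.7% of the Chd3, Chd4 and Chd5 set at E15 and 37.6% at P2, and Chd4 40.8% and 58.6%. The Chd4 share of E15 set B (45.9%) lay next to that of P2 plate 1 (47.5%). None of the 3 was detected in 12 E15 cells (9.92%) and 45 P2 cells (41.7%).

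Of the other CHD ATPases, Chd6 (-0.73) and Chd1 (-0.59) were called lower. Chd6 was at -0.41 on the log2 of the mean RPKM and Chd1 at -0.37 in the matched cells, neither called there. Chd7 (-0.19), Chd8 (-0.22), Chd9 (-0.36) and Chd2 (0.00) were not called. Among the NuRD scaffold subunits, Gatad2b differed by -0.54 (-0.92 to -0.16) and was called lower, and Gatad2a by -0.44 was not. The Mta genes, which link NuRD to the deacetylases, differed by -0.22 to -0.11 with none called. The histone chaperones Rbbp4 and Rbbp7 differed by -0.14 and 0.32, neither called. Of the methyl-CpG binding domain proteins, neither called, Mbd2 was detected in 31.4% and 16.7% of cells and Mbd3 in 28.1% and 28.7%. In the matched cells Mbd2 was detected in 19.6% of E15 and 27.5% of P2 cells and Mbd3 in 25.5% and 37.3%, with differences of 0.22 and 0.79, and Mbd3 was called higher there. Mbd3 made up 50.6% of their summed mean RPKM at E15 (43.4% and 58.0% by plate) and 81.7% at P2 (78.6% and 82.9%). That share rested on few cells, since 5 of the P2 cells held 63.8% of all Mbd3 RPKM at P2, and in P2 cells with Gad2 it was 49.0%. The difference of Mbd3 in level was 0.23, with plate pairs from -0.24 to 0.73.

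No INO80 subunit was called. Ruvbl2 differed by -0.35, Ino80d by -0.33 and the ATPase Ino80 by -0.21. These genes were detected in 21.5% to 29.8% of E15 cells and 10.2% to 23.1% of P2 cells. Ino80d shares exons with Ino80dos, and its E15 plates differed, at 8.33% and 34.4% of cells. Ruvbl1 made up 27.4% of the Ruvbl pair at E15 and 40.5% at P2, but the P2 plates were at 22.8% and 58.8%. Of the genes outside the 4 families, the helicase-like Smarcad1 was called lower (-0.73, -0.89 to -0.57) and the annealing helicase Smarcal1 was not (-0.06).

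**Figure D3:**
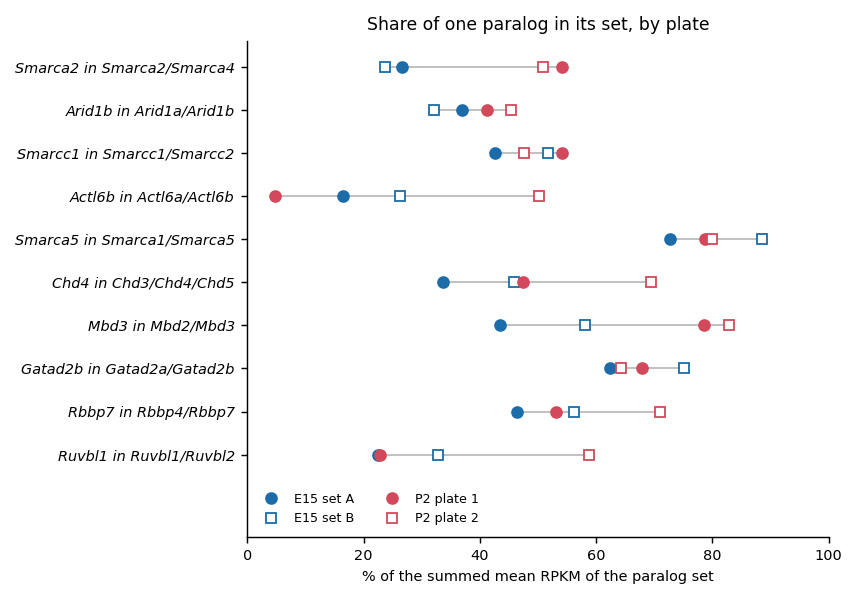
Share of 1 paralog in the summed mean RPKM of its set, in percent, for 10 paralog sets, with circles and open squares for the plates of each age. For Smarca2, Arid1b, Chd4 and Mbd3 both P2 plates lie above both E15 plates, while for Actl6b and Ruvbl1 the P2 plates are furthest apart.

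The share of detecting cells was lower at P2 for 45 of the 50 measured subunits (90%) and for 82.7% of all measured genes. Over all 55 members it was lower for 48 and higher for 7. Across the 19 lower calls, which were chosen by a lower mean level in the same cells, the median RPKM in detecting cells was higher at P2 for 8 of the 19 and lower for 11. Their mean RPKM over all cells at P2 was 0.272 to 0.924 of the E15 value, a description of the members so chosen. Among the 45 members detected in at least 10 cells of each age, the median RPKM in detecting cells was higher at P2 for 23 (51.1%), against 60.2% of the 5916 genes so detected. The exons of 9 of the 19 overlap another gene, as do those of 27 of the 55 members, and their reads cannot be told apart without strand.

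**Figure D4:**
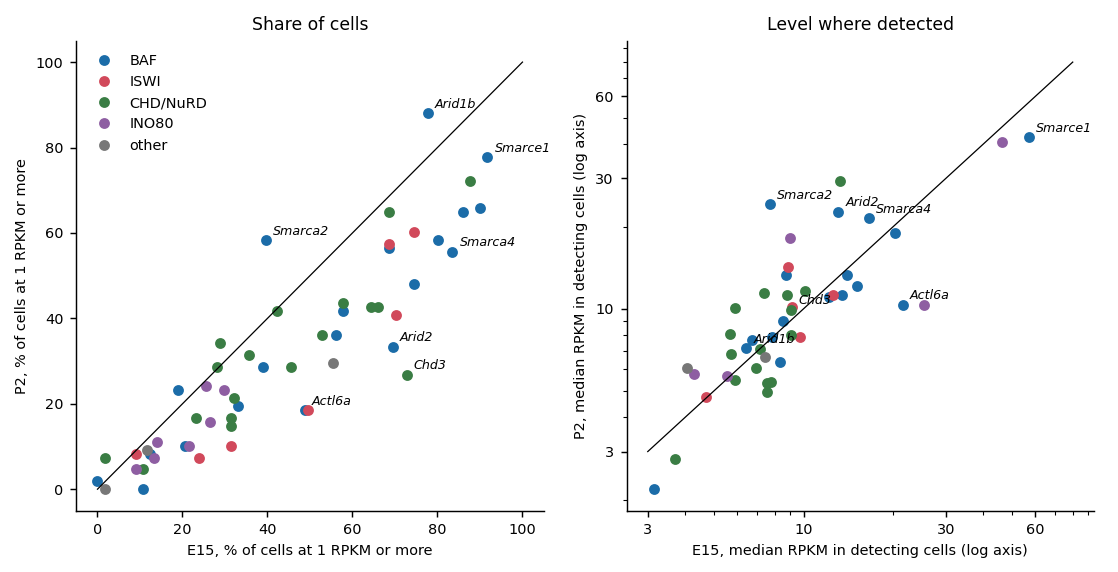
On the left, the percentage of cells that detect each of the 55 members at E15 and at P2. On the right, the median RPKM in the detecting cells on log axes, for the 45 members with at least 10 such cells at each age, with a line where both ages are equal. Most points lie below the line on the left and on both sides of it on the right.

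Genes of the same complexes outside the name rule were read from a separate list of 57 names, of which 55 were in the tables and 49 measured. Of these 14 (28.6%) were called lower at P2 and 0 higher, beside 22.2% and 3.42% of all measured genes, with a median difference of -0.28 against -0.24. Of the 49, 36 were measured in both ages, 10 only through E15 and 3 only through P2. The largest differences were in genes tied to BAF and NuRD. The zinc-finger BAF subunits Bcl11a and Bcl11b, which are also known as identity factors of cortical projection neurons, differed by -2.48 and -2.42. Bcl11b was detected in 71.9% of cells at E15 and 8.33% at P2, so it was measured only through E15, where it is high. The deacetylase Hdac2 differed by -2.17, the BAF subunit Bcl7a by -2.12 and the demethylase Kdm1a by -1.33. Of the 22 measured genes of INO80, SRCAP and TIP60, 4 (18.2%) were called lower, a share near the 22.2% of all measured genes.

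The next comparison set cells with Eomes detected against cells without it, within each age. At E15, 77 cells had Eomes and 44 did not, and 6 of 50 measured subunits were called higher and 1 lower with Eomes. Over all 8051 measured genes 14.7% were called higher and 2.35% lower, so the 12% of subunits called higher was near the background. The median difference was 0.18 for the subunits and 0.16 for all measured genes. Cells with Eomes had a median of 2999 detected genes and cells without 2599, and all 17 E15 cells with at least 5 G2/M genes were among those with Eomes. Without set A the counts were 12 of 51 higher and 3 lower, beside 17.7% and 12.3% of all measured genes, and without set B 10 of 51 and 6, beside 25.6% and 6.76%. In 36 cells of each kind matched on detected genes the median difference of the subunits was -0.06.

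The 6 subunits called higher at E15, a number near the background, were 3 ISWI and 3 NuRD genes. Smarca5 was detected in 79.2% of cells with Eomes and 50.0% without, with mean RPKM of 13.4 and 8.51 and a difference of 0.96 (0.28 to 1.40 over the plates). Baz1a (0.87) and Baz2b (0.81), which pair with ISWI ATPases, and the NuRD genes Mbd3 (0.65), Gatad2a (0.59) and Rbbp4 (0.51) were the others called higher. Smarcb1 was lower at -0.59, with nearly equal shares of detecting cells (57.1% and 59.1%) and mean RPKM of 9.78 and 16.7. Ruvbl2 differed by 0.66 and was not called, since its plates had opposite signs. Of the 6, only Baz1a was called again in the matched cells, beside 7.81% of all measured genes called higher there. Baz1a was measured only through the cells with Eomes, where it is high (32.5% of cells, against 9.09% of cells without). Of the 6, 4 were called again without the G2/M cells (Baz1a, Baz2b, Mbd3 and Smarca5).

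At P2, 78 cells had Eomes and 30 did not, and 8 of 48 measured subunits were called higher and 2 lower with Eomes, a share of 16.7% and 4.17%. Over all 6952 measured genes 13.3% were called higher and 4.24% lower, near the shares of the subunits. The median difference was 0.16 for the subunits, 0.11 for all measured genes and -0.02 in 27 cells of each kind matched on detected genes. Cells with G2/M genes were 15 of the 78 with Eomes and 2 of the 30 without, and Gad2 was detected in 33 and 11. Without the cells with Gad2, 15 subunits were called higher and 2 lower, beside 17.8% and 6.57% of all measured genes. Without plate 1 the counts were 17 of 49 higher and 3 lower, beside 23.9% and 10.6% of all measured genes, and without plate 2 they were 11 of 43 and 6, beside 21.8% and 15.5%.

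The 8 subunits called higher at P2 were 4 BAF and 4 NuRD genes. Smarca4 was detected in 60.3% of cells with Eomes and 43.3% without, with mean RPKM of 22.9 and 11.7 and a difference of 0.95 (0.43 to 1.51 over the plates). Brd9 differed by 0.96, with mean RPKM of 31.9 and 9.59. Arid1a (0.81), Mta2 (0.68), Mbd3 (0.62), Smarcc1 (0.61), Chd4 (0.58) and Gatad2a (0.51) were the others called higher. Smarcb1 differed by -1.0, with mean RPKM of 7.05 and 18.1, and Arid2 by -0.86, with mean RPKM of 8.63 and 15.6. Of the 8 higher calls, 3 were made again in the matched cells (Arid1a, Mta2 and Smarca4), where 10.1% of all measured genes were called higher and 12.7% lower, and both lower calls were made again. With detection above 0 or at 5 RPKM, Arid2 was no longer called. Gatad2a was measured only through the cells with Eomes (17.9%, against 6.67% of cells without). Smarca2 was not called in either age (-0.22 at E15 and -0.05 at P2).

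Mbd3 and Gatad2a were called higher and Smarcb1 lower with Eomes at both ages. In the matched cells Mbd3 and Gatad2a were called at neither age and Smarcb1 was called lower at both. There, 10.4% of all measured genes were called lower at E15 and 12.7% at P2. With detection at 5 RPKM, Smarcb1 was no longer called at E15 and its difference was not below 0. Without the G2/M cells, Mbd3 was called at E15 and not at P2, Gatad2a at neither age, and Smarcb1 at both. The difference of Smarcb1 was negative in each of the 4 plates, from -1.14 to -0.56. Whether any subunit's Eomes difference itself differed between the ages was not tested, with 1 sample per age.

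**Figure D5:**
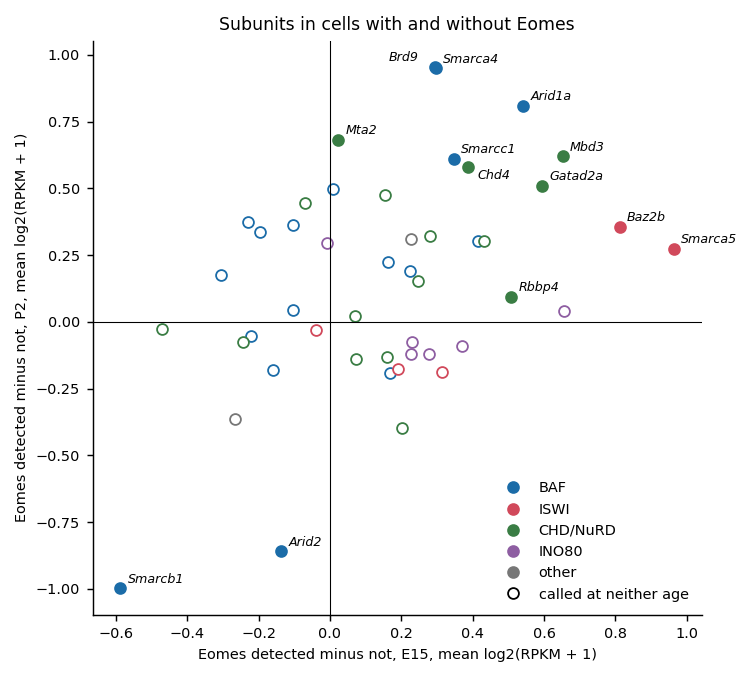
Difference between cells with and without Eomes in mean log2(RPKM + 1), E15 on the horizontal and P2 on the vertical axis, for the 47 subunits measured in both splits, colour by complex. Filled points were called at 1 age or both, with Mbd3 and Gatad2a at the upper right and Smarcb1 at the lower left, and Baz1a is not plotted because it was not measured in the P2 split.

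The age difference was also taken within each Eomes class. Among cells with Eomes, 18 of 51 measured subunits were called lower at P2 and 1 higher, beside 23.7% and 3.37% of 7986 genes, with a median of -0.46. Of the 51, 4 were measured only through E15 and 1 only through P2. Among cells without Eomes, 19 of 47 were called lower and 3 higher, beside 23.4% and 5.30% of 7489 genes, also with a median of -0.46. Of the 47, 5 were measured only through E15 and 1 only through P2. Smarca2 was higher in both classes, at 1.35 and 1.18. Arid1b (0.59) and Rbbp7 (0.74) were called higher in cells without Eomes. Smarca4 differed by -0.88 in cells with Eomes and -1.53 in cells without.

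Plates of the same age gave the size of difference that arises with no difference in age. They also differed in the cells they held. Eomes was detected in 51.7% of E15 set A and 75.4% of set B, and Gad2 in 50.9% of P2 plate 1 and 30.2% of plate 2. The part of this in the differences below was not tested, except where cells were left out or matched. Between the E15 plates, 5 of 52 measured subunits were past 0.5 higher in set B and 1 lower, beside 12.3% and 4.62% of all genes. Smarcc1 (1.26), Smarcc2 (0.92), Chd4 (0.77), Ino80d (0.72) and Chd3 (0.59) were higher and Actl6a (-0.92) lower. Ino80d was measured only through set B, where it is high (34.4% of cells, against 8.33% in set A). Smarcc1 had mean RPKM of 8.10 in set A and 17.0 in set B. Between the P2 plates, 5 of 48 were past 0.5 higher in plate 2 and 1 lower, beside 10.2% and 6.14%. Mbd3 (0.76), Arid2 (0.68), Ruvbl1 (0.64), Actl6b (0.55) and Chd4 (0.55) were higher, and Smarca2 (-0.60) was lower. Actl6b was measured only through plate 2, where it is high (17.0% of cells, against 3.64% in plate 1). The age difference of Smarca2, at 0.88 in its smallest plate pair, was larger than its difference between plates of 1 age, and so was that of Chd3, at -1.10 in its smallest pair. The plate difference of Smarcc1 was larger than its age difference.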

How the data were processed

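RNA of single cells sorted for tdTomato was measured in 230 cells, 121 at E15 and 109 at P2. Per the labels' protocols, cells were captured on a Fluidigm C1, amplified with the SMARTer kit and made into Nextera XT libraries, which keep no strand, and read at 75 bases. Per the submitters' processing notes, the tools were bcl2fastq 2.15.0.4, cutadapt 1.9.1, STAR and featureCounts with GRCm38.p4. The last tools' versions, the annotation and the counting options are not given in the sources used here. The authors deposited RPKM, 1 table per age, and these are not counts, so no count model was used. With exon lengths from GENCODE M21, a median of 81.5% (E15) and 79.3% (P2) of the low values of a cell lay within 0.02 of a whole read, which gave the read totals. The median of the reads assigned to genes was 3.19 M in E15 cells and 2.79 M in P2 cells.

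Levels, differences, calls and shares were computed with Python 3.11.15, numpy 2.4.6, pandas 2.3.3 and scipy 1.17.1, with a pseudocount of 1, and were tested on simulated data. Intervals of shares are exact (Clopper-Pearson, 95%), and a count of 0 was read against 3 cells. Both treat the cells of an age as independent draws and cover the counting of cells only. They leave out the spread between animals and between plates, since each age is 1 sample. The reads carry no molecular identifiers. No pair of cells had identical values.

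The members, the lists and the comparisons were chosen with earlier results of these data known. Full values are given for the measured members with the largest absolute age difference (6 in BAF, 3 in ISWI, 6 in CHD and NuRD, 3 in INO80), the fixed paralog sets, the 6 largest in each Eomes split, the 3 largest between plates of an age and 5 genes of the associated list, and other members were named after their values were seen. Alternatives were another pseudocount, the log2 of the mean RPKM, TPM and median-ratio scales, other filters and detection limits, cells left out or matched on detected genes, and each plate left out.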

Additional observations from a re-analysis of the deposited data

How the results depend on the processing

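Between the ages, the 19 lower calls became 32 of 50 with a pseudocount of 0.1 and 31 of 53 on a TPM scale, where 45.3% and 36.7% of all measured genes were called lower, against 22.2%. All 19 were among them, and the median of all measured genes on the TPM scale was -0.38 and not -0.24. The 1 higher call became 2 with the pseudocount of 0.1 and on the TPM scale, 4 on the log2 of the mean RPKM and in matched cells, and 3 in cells without Eomes. Of all measured genes, 5.24%, 4.47%, 13.4%, 11.9% and 5.30% were called higher under these settings, in that order, against 3.42%. With 1 plate left out at a time there were 17 to 24 lower and 1 to 3 higher calls, and medians of -0.48 to -0.31. Beside these, 21.7% to 28.9% of all measured genes were called lower and 3.55% to 5.16% higher. The median difference of -0.44 was -0.84 with the pseudocount of 0.1, -0.28 on the log2 of the mean RPKM, -0.78 on the TPM scale, -0.36 with no filter, -0.56 without cells above 20% mitochondrial RPKM and -0.24 in matched cells, where all measured genes were at -0.05. The cause of these moves was not tested.

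In the E15 Eomes split, the 6 higher calls became 16 with the pseudocount of 0.1, 13 on the TPM scale, 2 in matched cells and 10 to 12 with a plate left out, where 30.9%, 25.1%, 7.81% and 17.7% to 25.6% of all measured genes were called higher, against 14.7%. The 1 lower call became 2 with the pseudocount of 0.1, on the TPM and median-ratio scales and without cells with few detected genes, 6 on the log2 of the mean RPKM, 4 without cells above 20% mitochondrial RPKM, 8 in matched cells and 3 to 6 with a plate left out. In that order, 5.79%, 4.64%, 2.90%, 5.66%, 11.4%, 7.07%, 10.4% and 6.76% to 12.3% of all measured genes were called lower, against 2.35%. The median of 0.18 was 0.34 with the pseudocount of 0.1, 0.28 on the TPM scale, 0.10 on the log2 of the mean RPKM, 0.11 on the median-ratio scale, 0.03 without cells with few detected genes, 0.02 without cells above 20% mitochondrial RPKM and 0.13 without G2/M cells. It was 0.12 without the set B cells titled 62 to 69, 0.14 with detection above 0, 0.21 with detection at 5 RPKM, 0.14 with either plate left out and -0.06 in matched cells. Some of the cells titled 62 to 69 repeat the second title number of another set B cell. In the P2 split, the 8 higher calls became 16 with the pseudocount of 0.1, 18 on the log2 of the mean RPKM, 14 on the TPM scale, 5 in matched cells, 15 without Gad2 cells, 13 with detection above 0 and 11 to 17 with a plate left out. All measured genes were called higher at 27.0%, 31.0%, 21.5%, 10.1%, 17.8%, 11.5% and 21.8% to 23.9% under these settings, in that order, against 13.3%. The 2 lower calls became 8 in matched cells, 1 with detection above 0 and 3 to 6 with a plate left out. In that order, 12.7%, 4.08% and 10.6% to 15.5% of all measured genes were called lower, against 4.24%. The median of 0.16 ran from 0.06 to 0.33 with a plate left out and was -0.02 in matched cells.

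Between the E15 plates the median of 0.10 was 0.25 with the pseudocount of 0.1 and on the TPM scale, -0.03 on the log2 of the mean RPKM, -0.02 without cells with few detected genes and -0.06 in matched cells. Between the P2 plates the median of 0.11 was -0.01 without Gad2 cells, where Arid2 turned from 0.68 to -0.08. No paired analysis was possible because the labels give no animal or litter and the results come from no test. At 1 sample per age, no difference can be set against the spread between animals. At these depths a subunit below 1 RPKM in a cell may still be expressed there.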
